A study of Mus musculus with 30 samples.

Results

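The nucleus pulposus of 5 to 6-month-old SM/J mice, an inbred strain known as a poor healer, was compared here with that of 6-month-old LG/J mice, an inbred strain known as a super healer. The groups were taken by the strain and age given for each array: 6 SM/J and 4 LG/J arrays, 10 of the 30 arrays in the series, each holding RNA from the nucleus pulposus of caudal discs pooled within 1 animal. The labels give no engineered allele and no treatment for either group, and the age range given for SM/J is wider. Arrays of 7 C57BL/6 (BL6) mice at 6 months also entered the fit, where they only help to estimate the spread, and their levels are given for orientation. The comparison covered 19505 genes, every non-control row of the table with exactly 1 gene symbol, with the row of highest mean kept for genes with several.

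The nucleus pulposus is the gel-like core of the intervertebral disc. Its cells descend from the notochord, keep markers such as Noto, Shh, Krt8 and Krt19, and fill their surroundings with aggrecan, whose charged chains hold water. The tissue has no vessels of its own, so its cells live with little oxygen, rely on glycolysis, keep HIF-1α active and handle acid through carbonic anhydrases. SM/J discs are known for early degeneration and LG/J mice for closing ear wounds and repairing cartilage, and the comparison asks how far the transcriptomes of these discs differ before old age.

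Levels are log2 values as deposited, so that a difference of 1 is a 2-fold difference, and every difference is SM/J minus LG/J with its standard error (SE) from limma. The arrays of the strains differed in the spread of all their values before any gene was considered. The interquartile range of an array was 3.10 to 3.63 in SM/J and 4.86 to 5.04 in LG/J, the median of the negative control probes was 6.36 to 6.68 in SM/J and 5.62 to 6.10 in LG/J, and that of the positive control probes was 9.04 to 9.66 in SM/J and 10.25 to 10.32 in LG/J. None of these ranges overlapped: dim probes read higher and bright probes lower in SM/J. All SM/J arrays share 1 date in their titles and all LG/J arrays another, so the date and the strain cannot be told apart. Correlation between arrays was 0.968 to 0.980 within SM/J, 0.990 to 0.993 within LG/J and 0.904 to 0.956 between the strains. The mean of 3 Y-linked genes was 3.32 to 8.19 in SM/J, where arrays 3 and 6 stood high, and 3.28 to 3.70 in LG/J, so the sexes were not balanced between the strains.

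**Figure D1:**
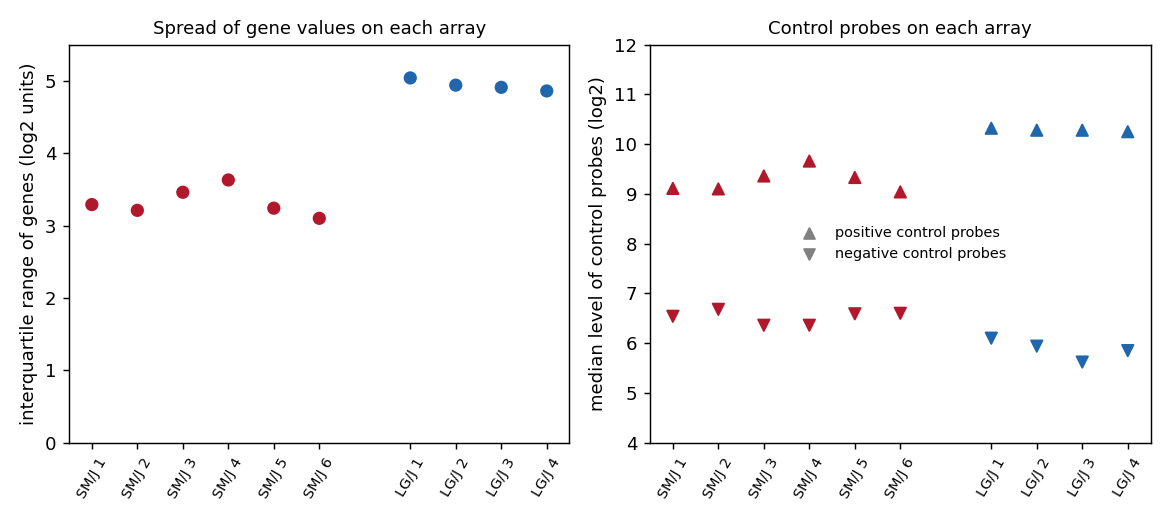
Interquartile range of all genes (log2, left) and medians of the positive and negative control probes (log2, right) for each array, with SM/J left of LG/J. The SM/J arrays lie between 3.10 and 3.63 in interquartile range and the LG/J arrays between 4.86 and 5.04.

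Genes were called where the adjusted p was below 0.05 and the strains differed 2-fold or more. With the deposited values 4834 of 19505 genes (24.8%) passed as higher in SM/J discs and 3553 (18.2%) as lower. After quantile normalization, which gives all arrays the same distribution, 1829 passed as higher and 2485 as lower. The counts below are of genes called in the same direction with both sets of values, 1526 higher (7.82% of the genes tested) and 1752 lower (8.98%). These hold 39.1% of the calls made with the deposited values. In 4 equal bins of mean level, dimmest to brightest, 110, 631, 635 and 150 genes were higher and 9, 137, 982 and 624 lower. Each bin held 4876 or 4877 genes. Genes called lower thus lay mostly in the brighter bins. Shares over all genes are given below without matching for level, and they are a low yardstick for lists of bright genes called lower. A stricter count takes genes called in the same direction under all 5 scalings tried, namely the deposited values, quantile normalization, centring on the array median, cyclic loess, and a linear scaling of each array to its control probes. It kept 1030 genes higher (5.28%) and 998 lower (5.12%). The median difference over all genes was 0.30 with the deposited values, -0.06 after quantile normalization, -0.17 after median centring, 0 after cyclic loess and -0.15 after scaling to the control probes. The share of calls that were higher in SM/J was 57.6%, 42.4%, 25.7%, 51.6% and 47.3% under the same 5 scalings. The last scaling was chosen after the data had been seen and lifts the brightest genes most in SM/J, and the direction of many lists of bright genes turned under it. The levels of 61.3% of all genes, and of 7934 of the 8387 genes called with the deposited values, did not overlap between the strains. Absence of overlap is therefore the common case, and where it is given below it only describes the values. In bulk tissue, fewer cells of a type and less RNA per cell cannot be told apart.

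**Figure D2:**
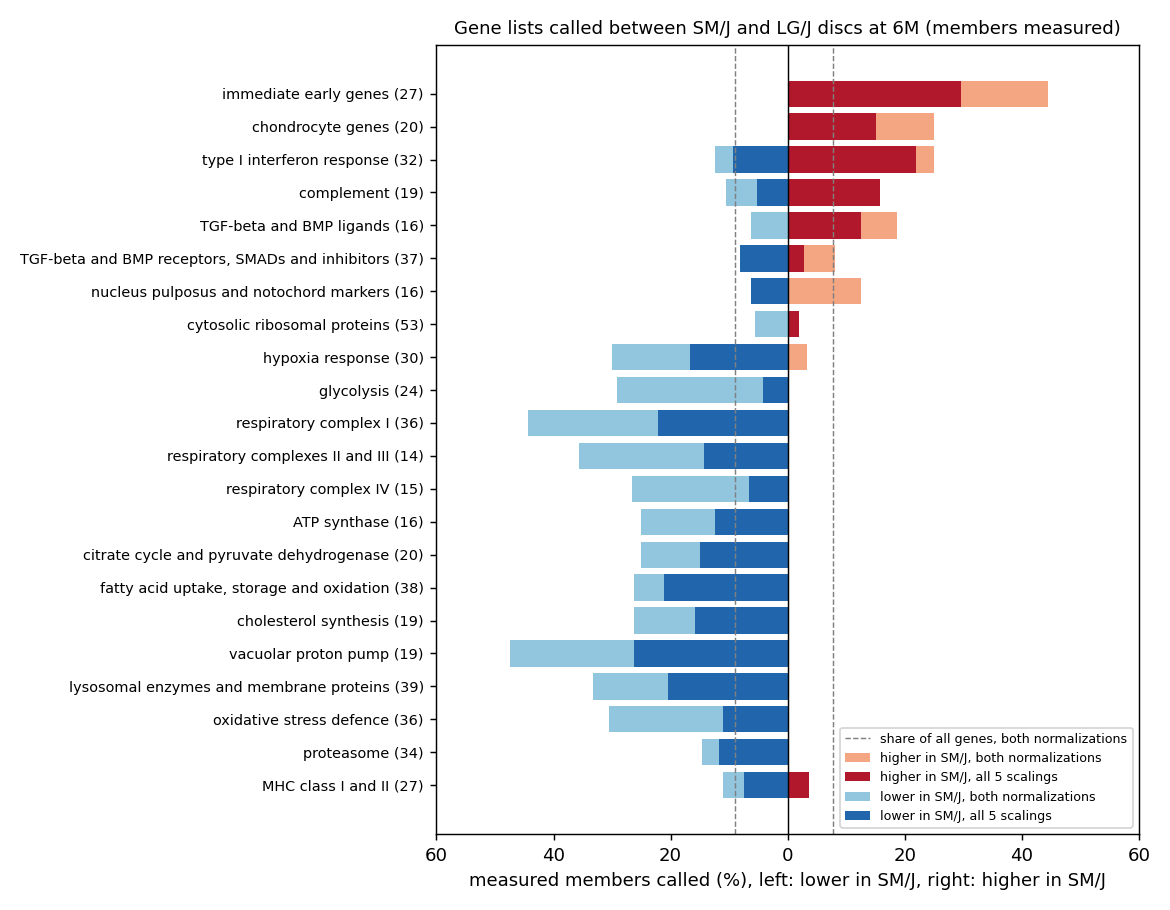
Share of the measured members of 22 gene lists (percent, SM/J against LG/J, to the right for higher and to the left for lower) called with both the deposited and the quantile normalized values (light) and under all 5 scalings (dark). The dashed lines mark the shares over all genes, 7.82% higher and 8.98% lower.

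The 10 genes furthest above LG/J in SM/J were mostly members of multicopy families, led by Csprs, Gm7609, Ipw, Speer4c and Vmn2r44, and all 10 were called under all 5 scalings. Near-identical copies share probes in such families, so the values cannot be assigned to single genes with certainty. Csprs, a gene of a long repeat cluster, had 10.16 to 11.65 (median 10.84) in SM/J discs, against 5.15, 5.48, 5.15 and 5.06 in LG/J discs, a difference of 5.63 ± 0.22 (adjusted p = 2.55e-13). Ipw, an imprinted non-coding transcript of the Prader-Willi region, had 13.48 to 15.47 (median 15.24) in SM/J discs, against 9.41, 10.23, 10.13 and 10.05 in LG/J discs, a difference of 4.93 ± 0.36 (adjusted p = 6.02e-10). The remaining members were Speer4c at 4.92 ± 0.28, Vmn2r44 at 4.81 ± 0.32, Vmn2r47 at 4.80 ± 0.31, Gm14632 at 4.77 ± 0.34, Vmn2r30 at 4.76 ± 0.30, Gm17019 at 4.74 ± 0.22, Gm10147 at 4.63 ± 0.33 and Gm7609 at 5.61 ± 0.25. The Vmn2r genes encode pheromone receptors of the vomeronasal organ. LG/J stood below the negative controls for Csprs, Gm7609 and the 3 Vmn2r genes. With LG/J set at its negative control level, Csprs still differed by at least 4.96. The BL6 medians of these genes, such as 6.30 for Csprs and 10.63 for Ipw, lay nearer to LG/J than to SM/J.

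The 10 genes furthest below LG/J in SM/J were Tbc1d9, Mtarc1, Prrx1, Cd36, Eno2, Gpnmb, Zfp949, Chit1, Rgs9 and Gm572. All 10 were called under all 5 scalings, and SM/J stood above the negative controls only for Gpnmb and Gm572. BL6 divided them. For 5 of these genes the BL6 median lay nearer to SM/J, and LG/J stood high alone. Tbc1d9, of a family that switches off Rab GTPases, had 3.98 to 4.73 (median 4.41) in SM/J discs, against 11.62, 11.88, 12.61 and 12.46 in LG/J discs, a difference of -7.74 ± 0.23 (adjusted p = 8.29e-16), with a BL6 median of 7.17. With SM/J set at its negative control level the difference was still -5.62. Mtarc1, a molybdenum enzyme of the outer mitochondrial membrane, had 3.90 to 5.03 (median 4.74) in SM/J discs, against 11.33, 11.46, 11.35 and 11.35 in LG/J discs, a difference of -6.72 ± 0.18 (adjusted p = 1.63e-16), with a BL6 median of 3.98. BL6 also lay below its negative controls for Mtarc1. The name of its array row marks it as unmapped, so its assignment is less certain. Eno2, the neuron-type enolase of glycolysis, differed by -5.31 ± 0.25, Zfp949, a zinc finger gene, by -4.84 ± 0.31, and Rgs9, which shortens G protein signals, by -4.67 ± 0.30. Their BL6 medians were 6.06, 6.74 and 7.88.

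For the other 5 the BL6 median lay nearer to LG/J, and SM/J stood low alone. Prrx1, a homeobox factor of limb and skull mesenchyme, had 4.56 to 6.23 (median 5.48) in SM/J discs, against 11.36, 11.41, 11.31 and 12.67 in LG/J discs, a difference of -6.23 ± 0.31 (adjusted p = 3.46e-12), with a BL6 median of 10.25. Cd36, a receptor for fatty acids and oxidized lipids, had 4.39 to 5.32 (median 4.89) in SM/J discs, against 9.76, 10.70, 10.40 and 11.59 in LG/J discs, a difference of -5.78 ± 0.34 (adjusted p = 5.06e-11), with a BL6 median of 10.36. With SM/J set at its negative control level, Prrx1 still differed by -5.17 and Cd36 by -4.09. Gpnmb, a membrane glycoprotein of lysosome-rich cells and osteoblasts, differed by -5.26 ± 0.25 with a BL6 median of 12.24. Chit1, a chitinase known from macrophages, differed by -4.67 ± 0.20 with a BL6 median of 11.44, and the predicted gene Gm572 by -4.64 ± 0.27 with 14.19. Prrx1, Cd36 and Chit1 thus did not stand above the negative controls in SM/J discs and had BL6 medians of 10.25 or higher.

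Of the genes that mark the nucleus pulposus and its cartilage matrix, Car3, Acan and Sox9 were among the brightest in both strains and did not pass the test with the deposited or the quantile normalized values. Car3, a carbonic anhydrase, had 19.25 to 19.52 (median 19.34) in SM/J discs, against 19.38, 19.46, 19.44 and 19.50 in LG/J discs, a difference of -0.08 ± 0.11 (adjusted p = 0.501). Acan, the core protein of aggrecan, had 18.19 to 18.50 (median 18.41) in SM/J discs, against 18.48, 18.58, 18.42 and 18.62 in LG/J discs, a difference of -0.16 ± 0.13 (adjusted p = 0.256). Sox9, the master factor of cartilage matrix, had 16.26 to 17.12 (median 16.78) in SM/J discs, against 16.25, 17.45, 16.70 and 16.54 in LG/J discs, a difference of 0.01 ± 0.29 (adjusted p = 0.985). Both groups overlapped for Car3, Acan and Sox9. Car3 and Acan stood at the top of the scale, at mean percentiles of 100 and 99.9 in each strain. Quantile normalization gives like ranks like values there, and whether the probes could still show a difference was not tested. Under the control probe scaling all 3 were called higher, at 6.22 for Car3, 5.63 for Acan and 4.89 for Sox9. Cd24a, a surface glycoprotein of young nucleus pulposus cells, differed by -0.07 ± 0.15 (adjusted p = 0.692), and Slc12a2, the cotransporter that sets chloride and cell volume, by 0.02 ± 0.21 (adjusted p = 0.943). Slc2a1, the glucose transporter GLUT1, differed by -0.50 ± 0.15 and Krt19 by -0.53 ± 0.19, both short of 2-fold, as were Cdh2 at -0.40 ± 0.16 and Krt18 at -0.71 ± 0.27. Acan and Sox9 are members of the chondrocyte list and were chosen here after their values were seen.

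Of the 16 measured markers of nucleus pulposus and notochord, 2 (12.5% against 7.82% of all genes) were higher and 1 (6.25% against 8.98%) lower in SM/J with both sets of values. Noto, a notochord homeobox factor, had 7.34 to 8.01 (median 7.68) in SM/J discs, against 6.08, 6.40, 6.33 and 6.54 in LG/J discs, a difference of 1.36 ± 0.17 (adjusted p = 7.01e-07). Shh, the Hedgehog ligand of notochord, had 8.84 to 9.99 (median 9.33) in SM/J discs, against 7.80, 8.08, 8.25 and 8.07 in LG/J discs, a difference of 1.38 ± 0.22 (adjusted p = 1.03e-05). Both genes lay higher on every SM/J array than on any LG/J array (61.3% of all genes did not overlap), and neither was called under all 5 scalings. Foxa2, a forkhead factor of the notochord, had 5.63 to 6.68 (median 6.23) in SM/J discs, against 7.16, 7.69, 8.10 and 7.65 in LG/J discs, a difference of -1.49 ± 0.24 (adjusted p = 1.45e-05), and was lower under all 5 scalings. SM/J did not stand above the negative controls for Foxa2. Lgals3, a galectin, at -1.07 ± 0.14, Krt8 at -1.18 ± 0.18, Cav1, the caveolar coat protein, at -1.19 ± 0.13 and Hif1a, the oxygen-regulated factor, at -1.02 ± 0.15 were called lower with the deposited but not with the quantile normalized values. After quantile normalization they differed by -0.65, -0.58, -0.42 and -0.29. The median over the 16 markers was -0.45, and it turned to 2.21 when the arrays were scaled to their control probes, where 12 markers were called higher and 3 lower.

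**Figure D3:**
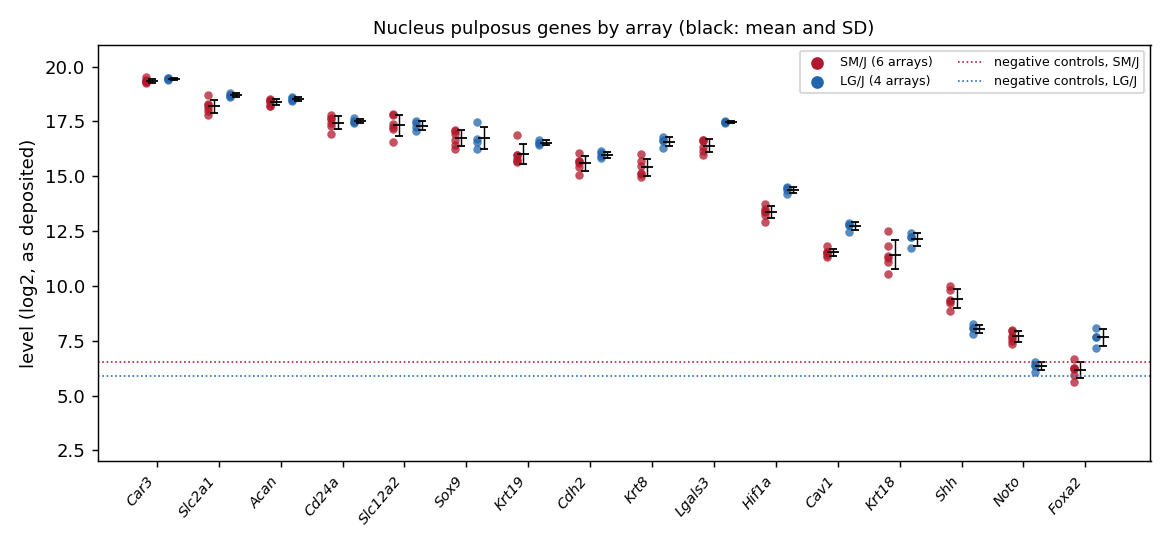
Levels (log2, as deposited) of 16 nucleus pulposus genes on each SM/J array (red, left) and LG/J array (blue, right), with the mean and SD in black and the negative control level of each strain as dotted lines. Car3 lies near 19.4 in both strains, while Shh and Noto are higher and Foxa2 lower in SM/J.

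The immediate early genes, a set of transcription factors and regulators that cells switch on within minutes of a stimulus without new protein, formed the list with the largest share of higher members among the pathways. Of 27 measured members, 12 (44.4%, against 7.82% of all genes) were higher in SM/J and 0 lower, and 8 were higher under all 5 scalings. With the deposited values 14 members were higher and 0 lower, and leaving out 1 array at a time gave 12 to 17 higher and 0 to 1 lower. Fos, the AP-1 subunit, had 17.24, 16.75, 18.90, 16.79, 17.33 and 17.43 on SM/J arrays 1 to 6, against 10.00, 12.35, 15.91 and 16.88 on LG/J arrays 1 to 4. The SM/J arrays were alike apart from the third, while the LG/J arrays spread widely and the fourth reached the SM/J level. The difference was 3.62 ± 0.87 (adjusted p = 0.000818). It was 2.36 without LG/J array 1, with an adjusted p of 0.00487. Egr1, a zinc finger factor, had 16.89 to 18.21 (median 17.39) in SM/J discs, against 12.99, 14.20, 15.84 and 16.75 in LG/J discs, a difference of 2.61 ± 0.50 (adjusted p = 7.9e-05). Zfp36, which marks messages for decay, had 13.22 to 15.63 (median 13.41) in SM/J discs, against 9.34, 9.78, 12.49 and 13.71 in LG/J discs, a difference of 2.41 ± 0.66 (adjusted p = 0.00242).

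Arrays 1 and 2 of LG/J were the low ones for Fos, Egr1 and Zfp36, and again for Ier2 and Junb. Ier2, an immediate early nuclear protein, had 11.72 to 14.12 (median 12.10) in SM/J discs, against 8.34, 9.35, 11.99 and 12.47 in LG/J discs, a difference of 1.93 ± 0.60 (adjusted p = 0.00605), and its adjusted p was 0.0506 without LG/J array 1. Junb, another AP-1 subunit, had 11.23 to 13.78 (median 11.85) in SM/J discs, against 7.73, 9.65, 12.09 and 12.56 in LG/J discs, a difference of 1.62 ± 0.69 (adjusted p = 0.0354). Its difference shrank to 0.70 (adjusted p = 0.276) without LG/J array 1, and its adjusted p was 0.112 without LG/J array 2, 0.0855 without SM/J array 3 and 0.0599 without SM/J array 6. Fosb, Nr4a1, Atf3 and Klf6 stayed called when any single array was left out. Fosb had 13.92 to 17.14 (median 15.55) in SM/J discs, against 9.22, 10.97, 12.92 and 14.50 in LG/J discs, a difference of 3.76 ± 0.85 (adjusted p = 0.000441). Nr4a1, an orphan nuclear receptor, had 12.20 to 14.26 (median 13.62) in SM/J discs, against 9.05, 11.36, 9.82 and 11.31 in LG/J discs, a difference of 3.03 ± 0.60 (adjusted p = 0.000125). Atf3, a stress-responsive factor of the ATF/CREB family, had 12.89 to 16.56 (median 15.34) in SM/J discs, against 12.16, 12.59, 10.35 and 12.95 in LG/J discs, a difference of 3.00 ± 0.66 (adjusted p = 0.000352). In Nr4a1 no SM/J value fell within the LG/J range, and in Atf3 only the lowest SM/J value did. Klf6, a zinc finger factor, differed by 1.71 ± 0.43. The BL6 medians of Fos, Egr1, Fosb and Nr4a1 were 16.89, 17.47, 15.66 and 13.36, each within the SM/J range. Array 3 of SM/J, the highest for Fos, Zfp36, Ier2 and Junb, was also the highest in the Y-linked mean; with that mean as a covariate the Fos difference was 3.37 (adjusted p = 0.00162) and Junb missed the threshold (adjusted p = 0.0659). With the mean of the skeletal muscle markers as a covariate, Zfp36 (adjusted p = 0.0838) and Ier2 (adjusted p = 0.104) missed it too. That mean did not overlap between the strains, and most muscle markers were below the negative controls, so it cannot be told apart from strain. Egr1, Atf3, Zfp36, Ier2, Klf6 and Junb were chosen for description after their values were seen.

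**Figure D4:**
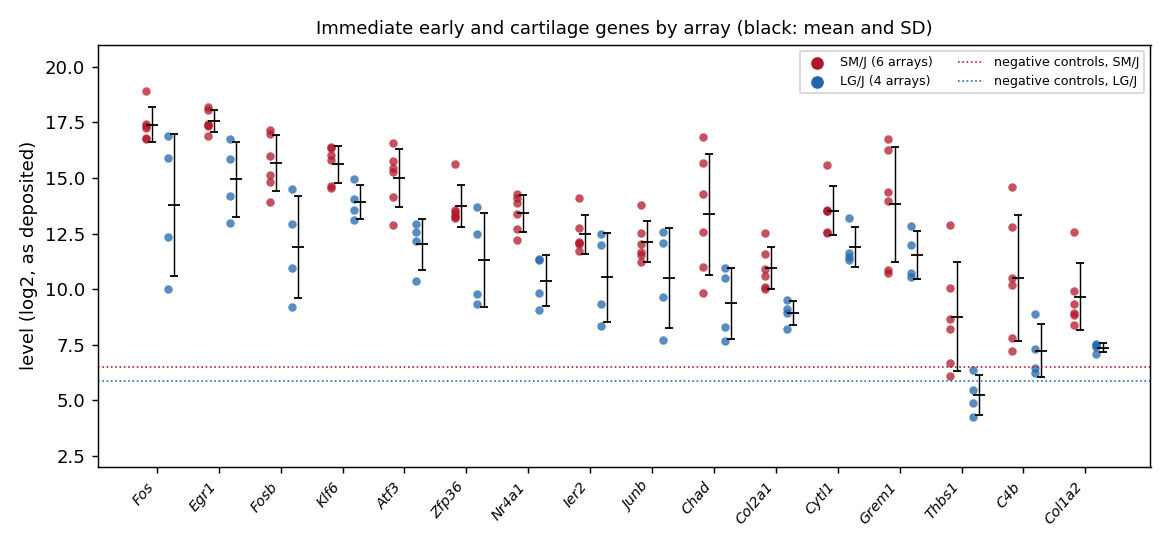
Levels (log2, as deposited) of 9 immediate early genes and 7 cartilage, fibrous tissue and secreted genes on each SM/J array (red, left) and LG/J array (blue, right), with the mean and SD in black and negative controls as dotted lines. Fos spans 16.75 to 18.90 in SM/J and 10.00 to 16.88 in LG/J, and Chad spans 9.81 to 16.85 in SM/J.

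The promoters of the 4 immediate early genes with the largest differences are shown because a short cAMP response element core, TGACG, recurs in them. Each line gives the 250 bases before the RefSeq start in the mouse reference (GRCm38.p6), 5′ to 3′ on the strand of the gene, with TGACG or its reverse complement in capitals. The windows are chr12:85473640-85473889 on the plus strand for Fos, chr7:19310046-19310295 on the minus strand for Fosb, chr15:101266596-101266845 on the plus strand for Nr4a1 and chr1:191183334-191183583 on the minus strand for Atf3.
Fos: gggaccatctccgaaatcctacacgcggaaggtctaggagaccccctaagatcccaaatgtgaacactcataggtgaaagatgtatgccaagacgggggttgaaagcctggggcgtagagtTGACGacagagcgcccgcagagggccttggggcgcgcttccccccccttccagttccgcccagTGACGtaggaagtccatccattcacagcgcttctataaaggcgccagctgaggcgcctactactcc
Fosb: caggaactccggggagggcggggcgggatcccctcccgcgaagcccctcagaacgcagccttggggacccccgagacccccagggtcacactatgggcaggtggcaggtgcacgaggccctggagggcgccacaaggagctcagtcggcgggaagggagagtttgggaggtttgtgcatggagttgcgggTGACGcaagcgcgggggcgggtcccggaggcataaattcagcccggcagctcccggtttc
Nr4a1: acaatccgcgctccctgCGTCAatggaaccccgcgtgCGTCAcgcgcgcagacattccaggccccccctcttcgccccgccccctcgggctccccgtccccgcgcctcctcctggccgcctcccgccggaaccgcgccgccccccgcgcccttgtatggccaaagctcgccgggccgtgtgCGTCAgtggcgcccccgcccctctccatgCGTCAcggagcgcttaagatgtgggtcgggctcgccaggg
Atf3: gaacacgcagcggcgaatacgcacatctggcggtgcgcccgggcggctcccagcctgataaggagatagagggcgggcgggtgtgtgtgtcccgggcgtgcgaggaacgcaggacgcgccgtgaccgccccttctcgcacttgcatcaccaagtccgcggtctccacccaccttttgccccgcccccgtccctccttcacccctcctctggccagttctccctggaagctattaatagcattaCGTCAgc
These are letters of the reference genome, not of SM/J or LG/J. TGACG was searched on both strands, and where it runs on to TGACGTG it overlaps the ACGTG core described below. It was present in 6 of the 8 immediate early genes called higher that had a promoter entry, Fos, Fosb, Junb, Atf3, Nr4a1 and Btg2, against 17.9% of 27025 promoters of the same length. Klf6 and Zfp36 held no match. A match is a description of the letters and not evidence of a bound site.

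Genes of cartilage were higher in SM/J in 5 of 20 measured members (25% against 7.82% of all genes), namely Chad, Col2a1, Cytl1, Col9a3 and Snorc, with 0 lower. Chad, Col2a1 and Cytl1 were higher under all 5 scalings. Col2a1, the main collagen of cartilage, had 10.00 to 12.51 (median 10.75) in SM/J discs, against 8.23, 9.09, 9.53 and 8.93 in LG/J discs, a difference of 2.00 ± 0.39 (adjusted p = 8.99e-05). Every SM/J array lay above every LG/J array for Col2a1 (61.3% of all genes did not overlap). Cytl1, a secreted cytokine-like protein of cartilage, had 12.51 to 15.59 (median 13.51) in SM/J discs, against 11.63, 11.45, 13.20 and 11.30 in LG/J discs, a difference of 1.64 ± 0.45 (adjusted p = 0.00243), Col9a3, which coats type II collagen fibrils, differed by 1.41 ± 0.19 and Snorc, a cartilage transmembrane proteoglycan chosen after its values were seen, by 1.08 ± 0.23. Snorc fell just under 2-fold without LG/J array 1 (0.99), LG/J array 4 (0.97) or SM/J array 2 (0.97). Chad, the leucine-rich matrix protein chondroadherin, had 16.85, 9.81, 15.69, 12.58, 10.99 and 14.30 on SM/J arrays 1 to 6, against 7.68, 8.30, 10.97 and 10.49 in LG/J, a difference of 4.01 ± 1.02 (adjusted p = 0.00131). The range of Chad within SM/J was thus wider than the difference between the strains.

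The same order of SM/J arrays, with array 1 highest and arrays 2 and 5 lowest, returned in several secreted genes. Grem1, a BMP antagonist, had 16.76, 10.71, 16.27, 13.96, 10.87 and 14.36 in SM/J, against 10.74, 10.56, 12.86 and 11.97 in LG/J, a difference of 2.29 ± 0.88 (adjusted p = 0.0223). C4b, a complement component, had 14.60, 7.23, 12.80, 10.19, 7.80 and 10.50 in SM/J, against 6.25, 6.45, 8.89 and 7.33 in LG/J, a difference of 3.29 ± 0.96 (adjusted p = 0.00378). Thbs1, a matricellular glycoprotein, had 12.87, 6.70, 10.07, 8.22, 6.08 and 8.64 in SM/J, against 4.87, 5.45, 6.36 and 4.27 in LG/J, a difference of 3.52 ± 0.86 (adjusted p = 0.000875). Wif1, a Wnt antagonist of cartilage borders, differed by 1.77 ± 0.62 and Col1a2, a chain of the type I collagen of fibrous tissue, by 2.29 ± 0.59, with SM/J array 1 highest in both. Grem1 was not called without SM/J array 1 (1.70, adjusted p = 0.058), SM/J array 3 (1.80, adjusted p = 0.0572), LG/J array 1 (2.03, adjusted p = 0.067) or LG/J array 2 (1.97, adjusted p = 0.0724). Wif1 was 1.14 without SM/J array 1 and not called without LG/J array 1 (1.49, adjusted p = 0.0532). Neither Grem1 nor Wif1 was called under median centring. With the skeletal muscle markers as a covariate, Chad (adjusted p = 0.106), C4b (adjusted p = 0.0708), Grem1 (adjusted p = 0.18) and Wif1 (adjusted p = 0.211) missed the threshold. Of the 22 muscle markers 16 lay below the negative controls in both strains. Their mean was 5.82 to 6.10 in SM/J and 5.48 to 5.63 in LG/J, so this covariate cannot be told apart from strain and array background. A part of muscle in these genes was not tested.

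The level of 15 annulus fibrosus and tendon markers, which include the Col1a2 named above and so overlap with those genes, moved with this order. Its mean was 9.04, 7.95, 8.68, 8.33, 8.22 and 8.37 on SM/J arrays 1 to 6, against 7.77, 7.86, 7.93 and 7.64 in LG/J, and its part in these results was not tested. Of the list, 4 members (26.7% against 7.82% of all genes) were higher (Thbs4, Col1a2, Cilp2 and Prelp) and 1 (6.67% against 8.98%) lower (Col5a1). Cilp2, of the intermediate layer of cartilage, differed by 2.20 ± 0.38 and Prelp, a matrix protein that anchors collagen, by 2.02 ± 0.17. The tendon factors Scx and Mkx differed by -0.17 ± 0.30 and -0.27 ± 0.15, neither was called with the deposited values, and both lay below the negative controls in SM/J. Mkx was called lower after quantile normalization (-1.04), cyclic loess (-1.10) and the control probe scaling (-1.18), and Scx under the last alone (-1.09).

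Among the enzymes and coats of the matrix, single genes moved in both directions. Pcolce2, which speeds removal of the procollagen C-propeptide, had 12.41 to 14.99 (median 13.97) in SM/J discs, against 9.62, 9.28, 10.92 and 10.27 in LG/J discs, a difference of 3.87 ± 0.36 (adjusted p = 1.14e-08). The collagen prolyl hydroxylase subunits P4ha2 and P4ha3 differed by 1.14 ± 0.23 and 1.05 ± 0.19, close to the 2-fold line. P4ha2 was 0.97 without SM/J array 1, and P4ha3 lay between 0.95 and 0.99 without LG/J array 1, LG/J array 4, SM/J array 2 or SM/J array 4. Neither subunit was called under median centring (0.67 for P4ha2 and 0.58 for P4ha3). Col22a1, a collagen of tissue junctions, differed by 1.66 ± 0.17 and Col5a2 by 1.89 ± 0.20, with LG/J below the negative controls for Col5a2. With LG/J set at that level, Col5a2 differed by at least 0.77, short of 2-fold. On the lower side stood Sdc3, a cell-surface heparan sulphate proteoglycan, with 8.71 to 10.67 (median 9.54) in SM/J discs, against 14.00, 13.68, 13.69 and 13.51 in LG/J discs, a difference of -4.14 ± 0.27 (adjusted p = 1.69e-10). Bgn was called higher beside Prelp and Chad. Gpc1, a membrane-anchored glypican, differed by -2.78 ± 0.28, Bmp1, the procollagen C-proteinase, by -1.35 ± 0.21, Col5a1 by -1.05 ± 0.21 and Mmp14, a membrane collagenase, by -1.27 ± 0.27. Mmp14 was not called under cyclic loess (-0.74). Col5a1 came within 2-fold without LG/J array 1 (-0.94), LG/J array 2 (-0.97) or SM/J array 1 (-0.98). Srgn, an intracellular proteoglycan, at -2.19 ± 0.21 and Timp3, an inhibitor of matrix proteases, at -1.84 ± 0.19 were lower under 4 scalings and turned to 1.14 and 2.00 under the scaling to control probes.

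Genes of mitochondrial respiration were lower in SM/J, with shares set against all genes and not against genes of like level. Of 36 measured subunits of complex I, the entry point of electrons from NADH, 16 (44.4% against 8.98% of all genes) were lower and 0 higher, and 8 were lower under all 5 scalings. The median difference over the 36 subunits was -1.58 with the deposited values and -0.98 after quantile normalization, and under the control probe scaling it was -0.28, with 6 subunits called higher and 10 lower. Ndufs7, an iron-sulphur subunit, had 6.34 to 7.50 (median 7.06) in SM/J discs, against 10.33, 9.28, 10.28 and 9.57 in LG/J discs, a difference of -2.91 ± 0.25 (adjusted p = 5.26e-09). Ndufa9, an accessory subunit, had 7.91 to 8.68 (median 8.28) in SM/J discs, against 10.73, 10.60, 10.65 and 10.42 in LG/J discs, a difference of -2.30 ± 0.15 (adjusted p = 2.12e-10). All SM/J values lay below all LG/J values in both subunits (61.3% of all genes did not overlap). Of complexes II and III 5 of 14 members (35.7%) were lower (Sdhc, Sdhd, Uqcrc1, Uqcrfs1 and Cyc1). Lower in complex IV were 4 of 15 (26.7%), namely Cox4i2, Cox5a, Cox6a1 and Cox6b1. In the ATP synthase 4 of 16 (25%) were lower (Atp5b, Atp5g3, Atp5o and Atpif1). Of the citrate cycle and pyruvate dehydrogenase 5 of 20 (25%) were lower (Idh2, Idh3a, Mdh2, Pdha1 and Dlat), and 0 were higher in any of these lists. Atp5o, of the stalk of the ATP synthase, had 7.99 to 9.16 (median 8.83) in SM/J discs, against 11.81, 11.37, 11.84 and 11.21 in LG/J discs, a difference of -2.89 ± 0.22 (adjusted p = 1.33e-09). Idh2, mitochondrial isocitrate dehydrogenase, had 9.86 to 11.92 (median 10.70) in SM/J discs, against 14.01, 13.68, 13.77 and 13.77 in LG/J discs, a difference of -3.06 ± 0.28 (adjusted p = 9.79e-09). Pdha1, a subunit of pyruvate dehydrogenase, differed by -2.83 ± 0.25 and Mdh2, malate dehydrogenase, by -2.45 ± 0.16. The medians of complex IV and of the ATP synthase turned to 0.92 and 0.84 under the scaling to control probes.

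Several genes of the hypoxia response were lower as well, although Vegfa was not. Of 30 measured members, 9 (30% against 8.98%) were lower and 1, P4ha2, higher, and Car9, Adm, Ddit4, Epas1 and Kdm3a were lower under all 5 scalings. Car9, a carbonic anhydrase of the cell surface that exports acid, had 7.74 to 8.15 (median 7.95) in SM/J discs, against 12.62, 11.40, 11.67 and 11.56 in LG/J discs, a difference of -3.87 ± 0.21 (adjusted p = 1.41e-11), with a BL6 median of 10.14. Adm, the vasodilator peptide adrenomedullin, had 8.32 to 10.96 (median 9.96) in SM/J discs, against 14.15, 13.57, 12.38 and 12.21 in LG/J discs, a difference of -3.30 ± 0.45 (adjusted p = 1.63e-06). Ddit4, an inhibitor of mTORC1, had 7.77 to 11.33 (median 9.36) in SM/J discs, against 11.63, 12.47, 13.07 and 12.74 in LG/J discs, a difference of -3.07 ± 0.68 (adjusted p = 0.000349). Car9, Adm and Ddit4 did not overlap between the strains, like 61.3% of all genes. Epas1, which encodes HIF-2α, differed by -2.58 ± 0.31 and Kdm3a, a histone demethylase, by -2.14 ± 0.31. Vegfa, the vessel growth factor, had 14.94 to 15.90 (median 15.54) in SM/J discs, against 15.67, 15.40, 14.99 and 15.34 in LG/J discs, a difference of 0.16 ± 0.18 (adjusted p = 0.427). Bnip3, a receptor for removal of mitochondria, had 11.79 to 13.26 (median 12.02) in SM/J discs, against 16.00, 15.08, 15.31 and 14.92 in LG/J discs, a difference of -3.13 ± 0.24 (adjusted p = 1.24e-09). The control probe scaling brought Bnip3 to -0.28 and Egln3, a HIF prolyl hydroxylase at -2.63 ± 0.22, to 0.31, and it turned the median of the list, -1.18 with the deposited values and -0.50 after quantile normalization, to 0.70. Under it 11 of the 30 members were called higher and 5 lower. Epas1, Egln3, Kdm3a and Vegfa were chosen after their values were seen.

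Promoters of Car9, with the largest difference in the list, and of Bnip3, an established HIF target, are shown for the hypoxia response element core ACGTG, in capitals on either strand. The windows are chr4:43506776-43507025 on the plus strand for Car9 and chr7:138909507-138909756 on the minus strand for Bnip3, with the build and orientation as above.
Car9: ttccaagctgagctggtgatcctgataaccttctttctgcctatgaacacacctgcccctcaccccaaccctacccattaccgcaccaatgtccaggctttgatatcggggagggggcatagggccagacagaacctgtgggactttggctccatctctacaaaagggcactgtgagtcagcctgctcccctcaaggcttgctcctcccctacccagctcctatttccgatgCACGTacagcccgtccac
Bnip3: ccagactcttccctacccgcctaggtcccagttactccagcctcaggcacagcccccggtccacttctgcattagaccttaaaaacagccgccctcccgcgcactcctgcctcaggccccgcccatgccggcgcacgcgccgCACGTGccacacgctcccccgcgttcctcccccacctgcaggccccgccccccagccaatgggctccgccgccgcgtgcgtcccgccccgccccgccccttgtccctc
ACGTG was present on either strand in 5 of the 8 members called lower that had a promoter entry (Egln3, Bnip3, Car9, Ddit4 and Pfkfb3), against 16.6% of 27025 promoters of the same length. Adm, Kdm3a and Higd1a held none. The palindrome CACGTG in Bnip3 holds the core once on each strand.

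Glycolysis, the main energy source of these cells, had 7 of 24 members (29.2% against 8.98% of all genes) lower and 0 higher. Among them were Eno2, Aldoc at -2.52 ± 0.25 and the neuronal glucose transporter Slc2a3 at -1.99 ± 0.32. Only Eno2 was lower under all 5 scalings, and Aldoc and Slc2a3 came to -0.26 and -0.60 under the control probe scaling without being called. The median of the list, -0.92, turned to 0.82 under that scaling, with 11 members called higher and 2 lower. Of the genes for fatty acid uptake, storage and oxidation, 10 of 38 (26.3%) were lower and 0 higher, 8 of them under all 5 scalings. The median of that list stayed below 0 under each scaling, between -0.45 and -1.40. Beside Cd36 these included Fabp5, a cytosolic fatty acid carrier, with 5.46 to 6.55 (median 5.75) in SM/J discs, against 9.81, 9.03, 9.24 and 9.00 in LG/J discs, a difference of -3.38 ± 0.27 (adjusted p = 1.71e-09), and Slc25a20, the carnitine carrier of the inner mitochondrial membrane, at -2.01 ± 0.17. SM/J did not stand above the negative controls for Fabp5. Of the cholesterol synthesis genes 5 of 19 (26.3%) were lower, namely Ebp, a sterol isomerase, at -2.51 ± 0.23, Sqle, squalene epoxidase, at -2.12 ± 0.19, Pmvk, Sc5d and Dhcr7. The median of the cholesterol list was -0.40 with the deposited values and 0.19 after quantile normalization.

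Lysosomal genes were lower in SM/J in 13 of 39 measured members (33.3% against 8.98%), and subunits of the proton pump that keeps lysosomes acid (the vacuolar ATPase) in 9 of 19 (47.4%), with 0 higher in either. Under all 5 scalings 8 and 5 of them were lower, and both medians stayed below 0. Under the control probe scaling the lysosomal genes had a median of -0.19, with 14 called higher and 10 lower, and the pump subunits one of -0.47, with 2 called higher and 7 lower. Npc2, which carries cholesterol out of the lysosome, had 6.33 to 7.28 (median 6.81) in SM/J discs, against 9.70, 9.21, 9.53 and 8.75 in LG/J discs, a difference of -2.47 ± 0.20 (adjusted p = 2.17e-09). Ctsc, a protease that activates granule enzymes, had 7.74 to 9.62 (median 8.45) in SM/J discs, against 11.70, 11.59, 11.62 and 11.38 in LG/J discs, a difference of -3.04 ± 0.26 (adjusted p = 5.91e-09). Man2b1, lysosomal α-mannosidase, had 6.20 to 7.21 (median 6.40) in SM/J discs, against 9.49, 9.22, 9.33 and 9.11 in LG/J discs, a difference of -2.79 ± 0.18 (adjusted p = 1.06e-10). The BL6 median of Man2b1 was 15.42, so the LG/J level was itself low. Among the pump subunits Atp6v0e2 differed by -2.41 ± 0.18, Atp6v1d by -2.04 ± 0.13 and Atp6v0b by -1.90 ± 0.16. Among 38 genes of autophagy 8 (21.1%) were lower and 1 (2.63% against 7.82% of all genes) was higher. Of 26 members of the ESCRT complexes, which sort cargo into vesicles, 5 (19.2%) were lower (Tsg101, Vps28, Vps37c, Snf8 and Vta1). Under the control probe scaling the autophagy genes had a median of -0.24, with 11 called higher and 8 lower, while the ESCRT median of -1.01 turned to 0.30.

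Of the genes that protect from oxidants, 11 of 36 members (30.6% against 8.98% of all genes) were lower and 0 higher, 4 of them lower under all 5 scalings. Gpx3, secreted glutathione peroxidase, had 10.71 to 13.68 (median 12.63) in SM/J discs, against 16.01, 16.03, 15.83 and 15.94 in LG/J discs, a difference of -3.51 ± 0.38 (adjusted p = 9.85e-08), and the glutathione transferases Gstm2 and Gstp1 differed by -3.05 ± 0.17 and -2.45 ± 0.19. The median of the list, -1.19, was 0.05 under the control probe scaling, with 12 members called higher and 5 lower. Gpx3, Gstm2 and Gstp1 came to -0.43, -0.61 and -0.75 there and were not called. Of 32 genes of osmotic and ion transport, 6 (18.8%) were lower and 1 (3.12% against 7.82% of all genes) higher. Clic5, a chloride channel protein, had 9.27 to 11.34 (median 9.94) in SM/J discs, against 12.92, 13.26, 13.73 and 13.23 in LG/J discs, a difference of -3.30 ± 0.28 (adjusted p = 4.06e-09), with a BL6 median of 6.15. Lrrc8b and Lrrc8d, subunits of the volume-regulated anion channel, differed by -1.43 ± 0.18 and -1.25 ± 0.21, and SM/J did not stand above the negative controls for Lrrc8d, which was chosen after its values were seen. With SM/J set at that level, Lrrc8d differed by -0.94, short of 2-fold. Of 53 ribosomal protein genes 3 (5.66%) were lower (Rps13, Rps20 and Rps21) and 1 (1.89%), Rplp0 at 1.54 ± 0.17, higher, both below the shares over all genes. Of 34 proteasome genes 5 (14.7%) were lower (Psmb2 at -2.88 ± 0.23, Psmc4, Psmc5, Psmd3 and Psmd6), and of the chaperones Cct2 differed by -3.03 ± 0.21. Under the control probe scaling 52 of the 53 ribosomal protein genes were higher, Cct2 came to -0.28 and was not called, the median of the proteasome genes turned from -1.35 to 0.52, and that of the cytosolic and mitochondrial chaperones from -1.03 to 0.89. Atf4, the factor of the integrated stress response, differed by 1.44 ± 0.32 and was not called under median centring (0.97). Its target Ddit3 differed by -1.80 ± 0.20 and was not called under cyclic loess or the control probe scaling.

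Growth factor genes also moved in both directions. Of 16 TGF-β and BMP ligands 3 (18.8% against 7.82% of all genes) were higher (Bmp5, Bmp7 and Inhbb) and 1 (6.25% against 8.98%) lower (Tgfb2). Bmp5, a BMP ligand, had 14.43 to 15.19 (median 14.72) in SM/J discs, against 11.90, 12.42, 12.65 and 12.60 in LG/J discs, a difference of 2.38 ± 0.20 (adjusted p = 4.33e-09). Tgfb2, a TGF-β ligand, had 11.17 to 11.93 (median 11.48) in SM/J discs, against 14.90, 15.58, 14.86 and 14.27 in LG/J discs, a difference of -3.41 ± 0.30 (adjusted p = 5.71e-09). Strains did not overlap for either ligand, like 61.3% of all genes, and Bmp5 was higher under all 5 scalings while Tgfb2 came to -0.86 under the control probe scaling. Inhbb, an activin subunit, differed by 2.05 ± 0.18. Tgfb1 differed by -0.95 ± 0.34 and was not called, although it was called lower without SM/J array 1 (-1.14) or SM/J array 3 (-1.22). Ccn2, the connective tissue growth factor, had 12.98 to 15.34 (median 14.52) in SM/J discs, against 13.91, 14.99, 12.05 and 10.44 in LG/J discs, a difference of 1.47 ± 0.68 (adjusted p = 0.0543). Its adjusted p was 0.0324 without LG/J array 1, 0.00566 without LG/J array 2, 0.0277 without SM/J array 3 and 0.0444 without SM/J array 6, and it was called higher after quantile normalization (2.18), cyclic loess (2.39) and the control probe scaling (4.87), so the call depended on the array left out and on the scaling. Smad1, which carries BMP signals, differed by -2.10 ± 0.19, Fstl1, a secreted BMP and activin binding protein, by -2.08 ± 0.23, Wnt16 by -2.07 ± 0.16, Fgf1 by -3.09 ± 0.34 and Sufu, the inhibitor of Gli factors, by -1.34 ± 0.22. Fgf1 came to -0.89 under the control probe scaling and was not called. Of 15 posterior Hox genes 2 (13.3%) were higher (Hoxc9, and Hoxd12, which stood above the negative controls in neither strain) and 2 (13.3%) lower, Hoxd9 at -2.41 ± 0.17 and Hoxd10 at -2.95 ± 0.40.

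Genes induced by type I interferon split. Of 32 measured, 8 (25% against 7.82%) were higher and 4 (12.5% against 8.98%) lower in SM/J, 7 and 3 under all 5 scalings, and the median, 0.62 with the deposited values, was 0.13 after quantile normalization and -0.34 under the control probe scaling. Gbp2, a guanylate-binding protein, had 10.20 to 11.19 (median 10.62) in SM/J discs, against 8.53, 7.78, 6.82 and 7.03 in LG/J discs, a difference of 3.08 ± 0.27 (adjusted p = 6.41e-09). Ifit3, an antiviral tetratricopeptide protein, had 10.93 to 11.91 (median 11.66) in SM/J discs, against 9.55, 9.99, 9.15 and 8.85 in LG/J discs, a difference of 2.12 ± 0.21 (adjusted p = 4.03e-08). Xaf1, a proapoptotic interferon-induced gene, had 8.66 to 9.74 (median 9.39) in SM/J discs, against 12.03, 11.45, 11.45 and 11.29 in LG/J discs, a difference of -2.30 ± 0.21 (adjusted p = 1.19e-08). Gbp2, Ifit3 and Xaf1 did not overlap between the strains, like 61.3% of all genes. Also higher were Gbp7 at 2.64 ± 0.21, Ifit2 at 2.16 ± 0.30 and Ifih1, the RNA sensor MDA5, at 2.40 ± 0.23. Also lower were Ddx58, the RNA sensor RIG-I, at -1.87 ± 0.23 and Ifitm3, which blocks viral entry, at -1.51 ± 0.23. The BL6 medians of Gbp2, Gbp7, Ifit2, Ifit3 and Ifih1, at 12.18, 10.02, 10.26, 12.96 and 8.94, were above those of SM/J. LG/J did not stand above the negative controls for Gbp7 and Ifih1, which with LG/J set at that level still differed by at least 2.31 and 1.42. Ifit3, Ifih1, Xaf1 and Ifitm3 were chosen after their values were seen.

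B2m, the light chain shared by MHC class I molecules, was far lower in SM/J. It had 10.33 to 11.71 (median 10.68) in SM/J discs, against 15.98, 15.71, 15.62 and 15.37 in LG/J discs, a difference of -4.80 ± 0.22 (adjusted p = 1.25e-12), with a BL6 median of 15.97, and it was lower under all 5 scalings. H2-Ab1, a chain of MHC class II, had 6.28 to 6.90 (median 6.78) in SM/J discs, against 10.19, 9.67, 9.66 and 9.80 in LG/J discs, a difference of -3.15 ± 0.16 (adjusted p = 5.19e-12). H2-T23, a non-classical class I gene, differed by -1.44 ± 0.30 and H2-DMb1, which helps load class II, by 1.60 ± 0.27. Of the 27 measured genes of the MHC list these were the only ones called with both sets of values. These were 3 lower (11.1% against 8.98% of all genes) and 1 higher (3.7% against 7.82%). With the deposited values 5 were called higher and 4 lower. H2-T23 was not called under cyclic loess (-0.75). Alleles of the H2 genes differ between strains, so their single assignments are uncertain. No probe, that of B2m included, was checked for sequence differences between the strains. Of 19 complement genes 3 (15.8%) were higher (C4b, C1ra at 1.99 ± 0.21 and C1s1 at 1.69 ± 0.24) and 2 (10.5%) lower, C2 and Masp1. Masp1, a protease of the lectin pathway, differed by -3.96 ± 0.35. Mif, a macrophage cytokine, differed by -2.62 ± 0.17 and the chemokine Ccl4 by 1.53 ± 0.19. Mif came to -0.26 under the control probe scaling and was not called.

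**Figure D5:**
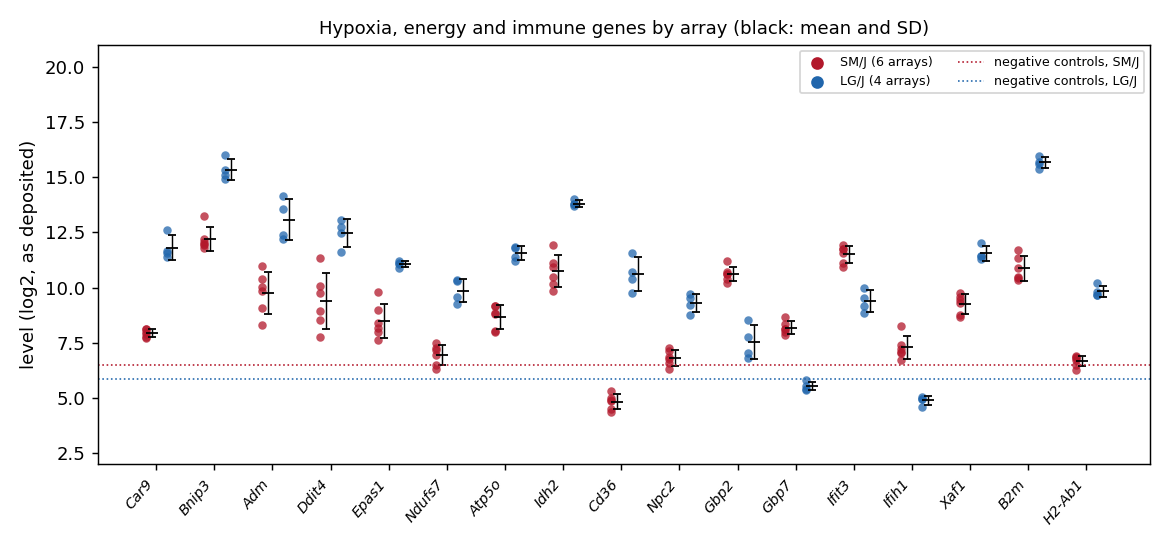
Levels (log2, as deposited) of 17 hypoxia, energy, lysosomal, interferon and MHC genes on each SM/J array (red, left) and LG/J array (blue, right), with the mean and SD in black and negative controls as dotted lines. B2m lies between 10.33 and 11.71 in SM/J and between 15.37 and 15.98 in LG/J, and Gbp2 and Ifit3 lie higher in SM/J.

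Markers of other cells were mostly dim. Of 15 measured macrophage markers, 3 (20% against 7.82% of all genes) were higher (Lyz2, Mrc1 and Adgre1) and 2 (13.3% against 8.98%) lower (Cd163 and Mertk) in SM/J. The mean of the list was 6.16 to 6.57 in SM/J and 5.47 to 5.61 in LG/J, at or below the negative control level of each strain. Lyz2, lysozyme of myeloid cells, had 6.46 to 8.90 (median 8.20) in SM/J discs, against 4.88, 4.81, 5.02 and 4.46 in LG/J discs, a difference of 3.12 ± 0.73 (adjusted p = 0.000607). The difference in Lyz2 was 1.16 with the neutrophil markers as a covariate, whose mean did not overlap between the strains. Mrc1, the mannose receptor of macrophages, differed by 1.79 ± 0.28 and Adgre1, which encodes F4/80, by 2.00 ± 0.24, while Cd163, the haemoglobin scavenger receptor, differed by -1.50 ± 0.23. LG/J did not stand above the negative controls for Lyz2 and Adgre1. With LG/J set at that level they differed by at least 2.04 and 0.98, the latter short of 2-fold. The neutrophil list had a mean of 5.44 to 6.59 in SM/J and 4.40 to 5.07 in LG/J, and 13 of its 17 markers were below the negative controls in both strains. The same held for 16 of 22 muscle, 12 of 14 endothelial and 10 of 11 B cell markers. Of 12 smooth muscle and pericyte markers, 3 (25% against 7.82% of all genes) were higher (Pdgfrb, Acta2 and Lmod1). Of the same 12, 1 (8.33% against 8.98%) was lower, Myh11 at -2.02 ± 0.33. Of 12 keratinocyte markers, 2 (16.7%) were higher (Dsc3 and Krt10) and 1 (8.33%), Perp at -2.12 ± 0.23, lower. Among these genes only Myh11 was called under all 5 scalings. Cd4, a T cell coreceptor, had 8.16 to 9.67 (median 9.11) in SM/J discs, against 6.80, 6.80, 6.71 and 6.84 in LG/J discs, a difference of 2.30 ± 0.21 (adjusted p = 1.05e-08). It was the only one of 13 T and NK cell markers (7.69%) called with both sets of values. With the deposited values 7 of them were called higher, and 11 of the 13 lay below the negative controls in both strains. The part of these cells in the differences above was not tested.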

How the data were processed

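Nucleus pulposus was dissected from caudal discs, pooled within each animal and hybridized to Mouse Clariom S arrays, so replicates are separate mice. The authors made the deposited log2 values in Affymetrix Expression Console, by signal-space transformed RMA per their methods and by RMA per the labels; the tool version is not given in the labels. The annotation build was not given in the sources used here. No probe was filtered for sequence differences between the strains. Of 28846 rows, 5316 controls and 3958 rows without a symbol were left out, and 55 genes with several rows kept the row of highest mean. The strains were fitted with limma 3.58.1 in R 4.3.3 (lmFit and eBayes) over the 17 arrays at 6 months, with Benjamini-Hochberg adjustment over all 19505 genes tested. Probes give no read depth, so the number of arrays limits the precision.

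The fit was repeated after quantile normalization, other scalings, filters, thresholds, tests, covariates and leaving out each array. The study's significance analysis of microarrays was rerun in own code, without its detection filter. A strain whose mean did not exceed its mean negative control level was treated as not above background, and "at least" differences set it at that level. The fit was tested on simulated data. The members and gene lists were chosen with earlier results of these data known. Of 1478 listed genes 1346 were matched. Genes were named by a rule: the 10 furthest in each direction, up to 3 members in a list's main direction and 1 in the other, nucleus pulposus markers and leading cell markers. The 10 furthest were ranked by the smaller of the deposited and quantile normalized differences. They came from genes called in both fits and above the negative controls in at least 1 strain. Most leading cell markers and some of the genes shown by the study are not described. Among these markers S100a8, S100a9 and Csf1r were not called. Genes outside the rule are said to be chosen after their values were seen, or are only listed as called members of a list. Figures were drawn with matplotlib 3.10.9.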

Additional observations from a re-analysis of the deposited data

Results flagged for a closer look

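In 15 of 292 sets of SM/J or LG/J values tested, 1 array lay apart from the others of its strain by more than Dixon's 95% limit, and chance gives about 1 in 20. Of these, 12 were in SM/J, 4 of them on array 3, 4 on array 4, 3 on array 1 and 1 on array 5. Array 3 was high for Fos at 18.90 (others 16.75 to 17.43), Zfp36 at 15.63 (13.22 to 13.54), H2-T23 at 9.40 (7.33 to 8.01) and Man2b1 at 7.21 (6.20 to 6.53). Array 4 was high for Krt19 at 16.89 (15.64 to 15.98), Bnip3 at 13.26 (11.79 to 12.19) and Ifit2 at 10.10 (9.08 to 9.23), and low for Mtarc1 at 3.90 (4.61 to 5.03), a gene below the negative controls in SM/J. Array 1 was high for Col1a2 at 12.55 (8.38 to 9.91), Cytl1 at 15.59 (12.51 to 13.54) and P4ha2 at 12.40 (11.06 to 11.56), and array 5 low for H2-DMb1 at 6.84 (7.47 to 7.79).

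In LG/J, array 4 was high for the mesenchymal factor Prrx1 at 12.67 (11.31 to 11.41) and for Chit1 at 10.57 (10.35 to 10.38), and array 2 for Mtarc1 at 11.46 (11.33 to 11.35). The last 2 stood apart by little because the other LG/J arrays were nearly equal.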

How the results depend on the processing

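The counts depended on the scaling, the low-level filter and the fold threshold. Against 8387 genes called (4834 higher and 3553 lower in SM/J), quantile normalization gave 4314 (1829 higher, 2485 lower), median centring 2059 higher and 5962 lower, cyclic loess 3625 (1872 and 1753), and the 10 SM/J and LG/J arrays alone with quantile normalization 4026 (1712 and 2314). Genes above the negative controls gave 5330 calls (1793 higher), those above the 25th percentile 3058 higher, and those above the median level 4239 (816 higher); these test fewer genes. A 1.5-fold threshold gave 13616 (7967 higher, 5649 lower), no fold threshold 15564 (9069 and 6495), and limma's treat against 2-fold 3184 (1764 and 1420). Significance analysis of microarrays gave 4869 higher and 3554 lower. Leaving out each array gave 8054 to 8903 calls, 4660 to 5048 higher and 3394 to 3855 lower, and 4083 to 4694 after quantile normalization. The scaling to control probes, chosen after seeing the data, gave 3531 higher and 3939 lower, 390 of them opposite to the deposited values; its effect on bright genes follows from stretching each array linearly. It reversed Car3 (6.22), Acan (5.63), Slc2a1 (5.22), Cd24a (5.19), Krt19 (3.99), Cdh2 (3.91), Lgals3 (3.77), Krt8 (3.15), Hif1a (2.21), Timp3 (2.00), Krt18 (1.39), Srgn (1.14), Cav1 (1.07) and Egln3 (0.31). For the other settings the cause was not tested. Of 128 named genes called with the deposited values, 118 were called in each fit without 1 array. Junb was also not called with array weights (adjusted p = 0.0586), and Junb (adjusted p = 0.0593) and Grem1 (adjusted p = 0.0521) not in the 10 arrays alone. With the neutrophil markers as a covariate, Cytl1 missed the threshold (adjusted p = 0.062), and Shh (0.97), Snorc (0.83), Col5a1 (-0.98), P4ha2 (0.85), P4ha3 (0.82) and Hif1a (-0.93) came under 2-fold. With the muscle markers, Cytl1 (adjusted p = 0.0597) and H2-DMb1 (adjusted p = 0.0547) missed the threshold. Neither the neutrophil nor the muscle mean overlapped between the strains, so these covariates cannot be told apart from strain and array background. No paired analysis was possible because the numbers of SM/J and LG/J arrays do not tie animals of the strains together. Genes below the negative controls give bounds only, and the 6 and 4 arrays of the strains limit the precision.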

Other observations

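Olfactory and vomeronasal receptor genes, which the nucleus pulposus is not known to use, were called higher in SM/J in 343 of 1410 (24.3%) and lower in 2, and 1060 of them lay below the negative controls in both strains. Predicted genes named Gm and a number were higher in 137 of 445 (30.8%) and lower in 5, and clone names ending in Rik were higher in 54 of 515 and lower in 27. Without these classes, 992 of 17135 genes (5.79%) were higher and 1718 (10%) lower. The classes were formed after their values were seen. With the genes in 4 equal bins of mean level, dimmest to brightest, the median difference was 0.84, 0.91, -0.38 and -0.92 with the deposited values, and 0.04, 0.10, -0.31 and -0.21 after quantile normalization.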
